A study of Drosophila melanogaster with 9 samples.

Results

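The sites described here gained peaks of both FLAG, the tag on Pita, and the cofactor CP190 in embryos whose Pita protein lacked its CP190-interacting regions. A FLAG peak need not mark bound Pita, and the study divided its FLAG peaks by Pita motif to deal with non-specific FLAG binding. A site was a FLAG peak of the Pita ΔCP1+2 line whose window, 250 bp on each side of the summit, overlapped by at least 1 bp a CP190 window of the same line and overlapped no FLAG window and no CP190 window of the Pita wt line. This rule selected 703 of 7365 mutant FLAG peaks (9.55%). The sites were chosen by the peak positions measured in all 4 lists, so their presence in the mutant lists and absence from the wt lists is a description and not a finding. A peak that is missing from a wt list had no value there, and the height of the wt signal at these sites was not analysed here.

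ChIP with antibodies to FLAG and to CP190 was done on Pita ΔCP1+2 embryos and on Pita wt embryos, with 2 replicates for each antibody and line, and all 4 lists were called against 1 preimmune sample, taken from the Pita wt line. Both lines carried a transgene for 3xFLAG-tagged Pita, either the ΔCP1+2 or the wt form, driven by the ubiquitous Ubi-p63E promoter and inserted at the same place on chromosome 3, in flies whose own pita gene carried the mutant alleles pita02132 and pitak05606. The strain is labelled Oregon-R. The samples were whole embryos collected over 12 h according to the labels, whereas the methods of the study give another age range, so many cell types were mixed. Each list combined its replicates, so a difference between lists has no replicate error. The study reports a self-consistency ratio for the replicates of each list, where a higher value means poorer agreement. This ratio was higher for both Pita wt lists than for both Pita ΔCP1+2 lists, and above the limit given in its methods. Absence from the wt lists is part of the rule, and its dependence on replicate agreement was not tested. The lists held 7365 FLAG and 8429 CP190 peaks in the Pita ΔCP1+2 line, against 6901 FLAG and 6586 CP190 peaks in the Pita wt line, and the number of reads behind them was not analysed here.

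Pita is an architectural protein with an N-terminal zinc-finger-associated domain and a cluster of C2H2 zinc fingers that recognise a long DNA motif. CP190 carries a BTB domain and is brought to chromatin by several DNA-binding architectural proteins, where it is associated with open chromatin at promoters and domain boundaries. The fold enrichment used below is the ratio of ChIP to preimmune signal at the summit as the peak caller MACS2 gave it, and peaks were ranked by it within their list, with rank 1 for the highest value.

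To show what DNA lies under the gained sites, the stretches around the summits of the strongest of them on the assembled chromosomes and outside UTRs are printed below, read from the dm6 sequence on the plus strand with the summit at the centre. Capitals mark matches to any of 8 short words searched on both strands: GAGAG, the core of the GAGA factor motif; CGATA, the core of the BEAF-32 motif; TATCGATA, the DNA replication-related element; CAGGTA, the Zelda motif; CACACA, a CA repeat; CAGCTG, an E-box; TATAAA, the TATA box; and GGTCACAC, a motif of core promoters. The longer words can contain a shorter one, as TATCGATA contains CGATA.
Intergenic site in a dense run of gained sites, chr2L:12933454-12933654: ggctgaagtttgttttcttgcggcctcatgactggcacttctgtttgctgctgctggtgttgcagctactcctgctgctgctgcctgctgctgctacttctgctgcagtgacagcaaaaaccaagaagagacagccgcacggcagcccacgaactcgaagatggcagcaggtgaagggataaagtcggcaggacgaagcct
Intergenic site on the Y chromosome, chrY:887540-887740: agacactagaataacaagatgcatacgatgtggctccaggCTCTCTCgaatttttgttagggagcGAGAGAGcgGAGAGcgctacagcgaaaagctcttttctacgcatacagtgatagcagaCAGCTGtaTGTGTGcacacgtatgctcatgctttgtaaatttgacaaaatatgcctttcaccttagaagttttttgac
Coding exon of Cngl, chrX:15392484-15392684: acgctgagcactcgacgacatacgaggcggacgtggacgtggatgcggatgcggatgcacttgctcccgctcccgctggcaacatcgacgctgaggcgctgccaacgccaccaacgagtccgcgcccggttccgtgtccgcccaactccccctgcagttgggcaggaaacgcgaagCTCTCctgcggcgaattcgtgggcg
Coding exon of nab, chr3L:4155277-4155477: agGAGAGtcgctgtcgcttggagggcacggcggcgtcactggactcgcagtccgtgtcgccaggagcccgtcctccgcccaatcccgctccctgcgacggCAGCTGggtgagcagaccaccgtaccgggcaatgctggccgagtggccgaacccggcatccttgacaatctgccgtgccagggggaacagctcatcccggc
The GC content was 66.7% in the Cngl stretch and 68.7% in the nab stretch, both with their summits in coding exons, and 55.7% in the stretch on 2L and 43.3% in the one on Y. None of the 8 words occurred in the stretch on 2L, while GAGAG occurred in each of the other stretches, repeatedly in the one on Y.

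Pita itself recognises a motif of 21 positions, and 2 of the 5 best matches to its matrix among the gained sites are shown on their own strand, with the 21 matched bases in capitals and 10 bases on each side, to show how close to a Pita motif the gained sites came.
Gained site within the dense run, chr2L:12878129-12878169, minus strand: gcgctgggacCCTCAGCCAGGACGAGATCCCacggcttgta
Gained site in a coding exon of CG13033, chr3L:16544965-16545005, minus strand: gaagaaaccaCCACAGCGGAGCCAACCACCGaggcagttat
The match on 2L scored 10.8 (p = 5.03e-06) and the match at CG13033 10.3 (p = 8.26e-06), where the exact p is the share of random words with equal base frequencies that score as high. This p is for a single word. It was not corrected for the search through every position on both strands of 697 windows, from which these best matches were picked. The highest score the matrix allows is 19.1. The FLAG peak of the site on 2L had a fold enrichment of 1.94 and its CP190 peak 2.03, and at CG13033 these values were 2.36 for FLAG and 2.11 for CP190. The FLAG peak on 2L had rank 4522 of 7365 and that at CG13033 rank 1376, the higher of both.

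The gained sites were for the most part weak peaks. Their FLAG fold enrichment ranged between 1.29 and 11.5, with a median of 1.88 and quartiles of 1.76 and 2.02 (n = 703), beside a median of 2.04 for the other 6662 FLAG peaks of the Pita ΔCP1+2 line and of 2.17 for the 3421 of them that were present in all 4 lists. The median rank was 5184 of 7365, and 521 sites (74.1%) lay in the lower part of the list, below its middle rank. A fold enrichment of at least 2 was reached by 196 sites (27.9%) in FLAG and by 152 (21.6%) in both FLAG and CP190. The median of the other FLAG peaks, 2.04, lay above this cutoff. At least 3 in FLAG was reached by 6 sites. Among the 1000 strongest FLAG peaks of the mutant line there were 19 gained sites, among the 100 strongest 5, and among the 10 strongest 4, where gained sites made up 9.55% of the whole list. The set therefore consisted of a large body of low peaks and a few of the highest peaks of the whole list. The deposited peaks were also narrower, with a median width of 469 bp, against 524 bp for the other FLAG peaks of the mutant line and 594 bp for the sites present in all 4 lists. These values come from the lists that chose the sites, and no test was made on them.

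The CP190 peaks paired with the gained sites had a median fold enrichment of 1.99 with quartiles of 1.85 and 2.14, and a range between 1.43 and 11.1, beside a median of 2.07 for the whole CP190 list of the mutant line. The 703 sites were paired with 702 different CP190 peaks, so 1 CP190 peak was shared. The FLAG and CP190 summits were a median of 30 bp apart, and 57 bp at the upper quartile, although the rule allowed much larger distances and the largest was 495 bp. The distance was not measured for the other FLAG peaks with a CP190 partner. CP190 had the higher fold enrichment of both proteins at 504 of 703 sites (71.7%), and the ratio of CP190 to FLAG fold enrichment had a median of 1.06 and ranged between 0.702 and 1.67. This share was not counted for the other FLAG peaks. The complete mutant lists also had a higher median for CP190, 2.07, than for FLAG, 2.02. These medians are of different sets of peaks and do not give the share among the other peaks. Across the 703 sites the Spearman correlation of FLAG and CP190 fold enrichment was 0.525, and across the 4712 other FLAG peaks of the mutant line with a CP190 partner it was 0.665. These correlations are a description across peaks, which share the chromatin of 1 line and the same preimmune control.

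**Figure D1:**
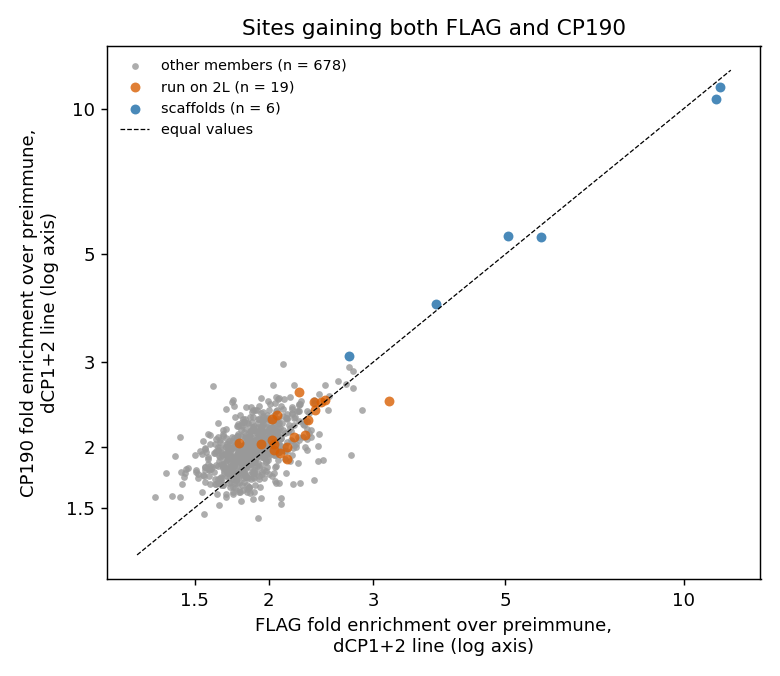
FLAG fold enrichment (x axis) against CP190 fold enrichment (y axis) of the 703 gained sites in the Pita ΔCP1+2 line, both ratios over the preimmune sample on log axes, with 1 point per site and a dashed line of equal values. Most of the 678 grey points lie close to 1.88 in FLAG and 1.99 in CP190, the 19 sites of the run on 2L spread over 1.78 to 3.18 in FLAG and 1.90 to 2.60 in CP190, and the 6 sites on scaffolds extend along the dashed line up to 11.5 and 11.1.

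The highest values belonged to sites on scaffolds assigned to the Y chromosome or to no chromosome. The FLAG peak at 10688 to 11261 on scaffold Y_DS483677v1_random had a fold enrichment of 11.5 and rank 1 of 7365, and its CP190 peak 11.1 and rank 2 of 8429. On Y_DS485927v1_random, the peak at 79 to 660 had a fold enrichment of 11.3 in FLAG and of 10.5 in CP190, at ranks 2 and 3. These values lie far above the upper quartiles of 2.02 and 2.14 and are nearly the same for both proteins. Similar values for both proteins were general to the set, where the ratio of CP190 to FLAG had a median of 1.06. Scaffold Y_CP007111v1_random held a pair of gained sites, with 5.74 in FLAG and 5.44 in CP190 at 11507 to 11952, and 5.06 in FLAG and 5.46 in CP190 at 26024 to 28111. The unplaced scaffold Un_CP007120v1 held another pair, with 3.83 in FLAG and 3.95 in CP190 at 36795 to 37079, and 2.73 in FLAG and 3.09 in CP190 at the summit 73655. No annotation of these scaffolds was used here, so their genes and sequence features are not described.

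The Y chromosome is gene-poor and rich in repeats, and its reads are hard to place uniquely. On Y and its scaffolds together there were 6 FLAG and 6 CP190 peaks in the Pita ΔCP1+2 line, against 2 FLAG and 3 CP190 peaks in the Pita wt line. The fold enrichments were 2.71 to 11.5 in FLAG and 2.39 to 11.1 in CP190 in the Pita ΔCP1+2 line, against 2.16 to 2.99 in FLAG and 2.18 to 2.56 in CP190 in the Pita wt line. On Un_CP007120v1 there were 2 FLAG and 3 CP190 peaks in the Pita ΔCP1+2 line and 0 in both wt lists. On the assembled Y chromosome, the gained site at 887592 to 887827 had 2.87 in FLAG (rank 299) and 2.39 in CP190 (rank 1695) and lay 6561 bp from the start of Su(Ste):CR42407 (FBgn0259838), one of the Y-linked repeats whose transcripts silence the Stellate genes in the male germline. As the only preimmune sample came from the Pita wt line, a difference between the lines in the DNA of these repeats and a difference in binding cannot be told apart.

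The base of the X chromosome, where the ribosomal RNA genes lie, also held gained sites. At 23217005 to 23217215, in a noncoding exon of the pseudogene 28SrRNA-Psi:CR45859 (FBgn0267519), FLAG reached 2.53 and CP190 2.56. The nearest annotated start of the sites with summits at 23327682 and 23394650 was that of 2SrRNA:CR45864 (FBgn0267524), at 35982 and 102950 bp. FLAG reached 2.00 at the first of these and 2.70 at the second, and CP190 2.29 and 2.70. These sites were picked out after their values had been seen.

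A single stretch of 2L held a run of gained sites far denser than any other. With neighbours at most 20 kb apart counted as a run, 510 sites stood alone, 74 runs held 2 sites, 6 held 3, 2 held 4 and 1 held 19. The 19 summits lay between 12866507 and 12955236 on 2L (dm6), over 88729 bp, with a median spacing of 4821 bp. Within these bounds there were 30 FLAG and 29 CP190 peaks in the Pita ΔCP1+2 line, against 1 FLAG and 2 CP190 peaks in Pita wt. Of the 30 FLAG peaks, 19 were gained sites by the rule, 2 had a CP190 partner but also overlapped a wt window, and 9 had no CP190 partner. In the neighbouring stretch of the same length to the left there were 2 FLAG and 2 CP190 peaks in the Pita ΔCP1+2 line and 2 FLAG and 1 CP190 peaks in the Pita wt line. To the right the counts were 9 FLAG and 12 CP190 peaks in the Pita ΔCP1+2 line and 6 FLAG and 6 CP190 peaks in the Pita wt line.

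The peaks of the run were of moderate height. The 19 sites had FLAG fold enrichments of 1.78 to 3.18 with a median of 2.15, and CP190 fold enrichments of 1.90 to 2.60 with a median of 2.12, beside medians of 1.88 and 1.99 over all 703 sites. The strongest, at 12932715 to 12933774, had 3.18 in FLAG (rank 109) and 2.50 in CP190 (rank 1240), and it is the intergenic site on 2L whose sequence is printed above, 2003 bp from the start of lncRNA:CR44183 (FBgn0265072). Of the 19 summits, 15 were intergenic and 4 lay in coding exons, and the median GC content of their windows was 48.3%, against 56.1% over all 697 gained sites on assembled chromosomes. The genes within the run were ACXC (FBgn0040508), ACXB (FBgn0040509), ACXA (FBgn0040510) and ACXE (FBgn0040506), which encode adenylyl cyclases of the ACX group known for their expression in the male germline, and the noncoding lncRNA:CR44183. Summits in the run fell within this gene cluster and in the long gene-free stretch before ACXC, which starts at 12912530. Others, the strongest site among them, lay beyond lncRNA:CR44183, which ends at 12932340.

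**Figure D2:**
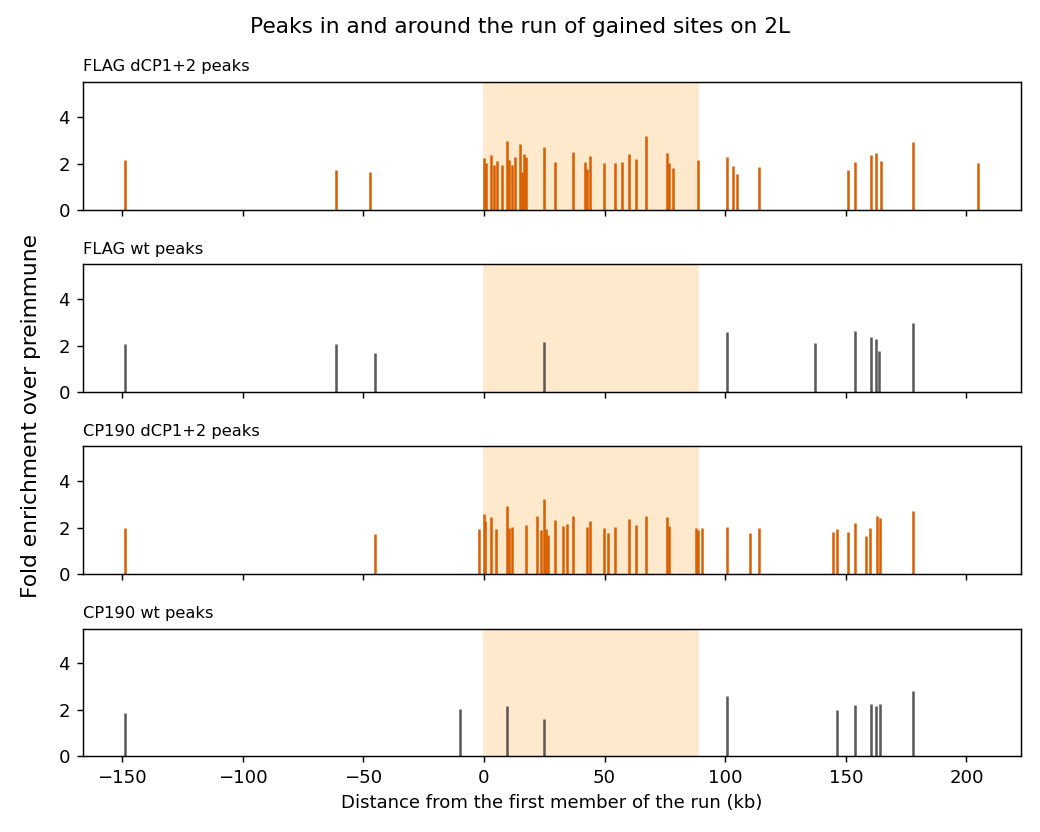
Peaks of the 4 lists in and around the run of 19 gained sites on 2L, with the distance from the first gained site in kb on the x axis, the fold enrichment over preimmune on the y axis, and 1 vertical line per peak. Within the shaded 88729 bp the Pita ΔCP1+2 line has 30 FLAG and 29 CP190 peaks (orange), against 1 FLAG and 2 CP190 peaks in the Pita wt line (grey), and in the stretch of the same length to the left 2 FLAG and 2 CP190 peaks, against 2 FLAG and 1 CP190 peaks.

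To place the run in the genome, peaks were counted in 1379 bins of 100 kb. The difference in FLAG peaks, Pita ΔCP1+2 minus Pita wt, was 17 and 15 in the bins that hold the run, 9 in the next highest bin and 0 at the median, and the lowest was -8. For CP190 the same bins had 17 and 14 more peaks in the Pita ΔCP1+2 line, with a median of 1 and a lowest value of -6. Peaks of both proteins appeared together over a long stretch, and as for the Y scaffolds, a difference between the lines in the DNA of this stretch and a difference in binding cannot be told apart with 1 preimmune sample of the Pita wt line.

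The other gained sites of high rank lay in coding exons. The peak at 15392415 to 15393376 on X lay in a coding exon of Cngl, which encodes a protein related to cyclic nucleotide-gated ion channels, with 2.77 in FLAG (rank 385) and 2.65 in CP190 (rank 783). The peak at 4155157 to 4156494 on 3L lay in a coding exon of nab (FBgn0259986), which encodes a transcriptional cofactor, with 2.77 in FLAG (rank 388) and 2.87 in CP190 (rank 404). In both, the rank was high for FLAG and CP190 alike. The peak at 20391486 to 20392271 on X, in a coding exon of l(1)G0004 (FBgn0027334) and 178 bp from its start, was unlike these, with 2.75 in FLAG (rank 413) but 1.93 in CP190 (rank 5886).

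In position, the gained sites lay mainly inside coding sequence and rarely at promoters. Of the 697 sites on assembled chromosomes, 546 (78.3%, 95% Wilson interval 75.1 to 81.2%) had the FLAG summit in a coding exon, against 78.3% of the other FLAG peaks of the mutant line, 85.5% of the sites present in all 4 lists and 16.7% of all windows of the genome of the same length by their centre. Introns held 70 of the gained summits (10.0%), against 8.57% of the other FLAG peaks of the mutant line, intergenic DNA 58 (8.32%), against 7.98%, and 5′ UTRs 15 (2.15%), against 3.72%. A transcription start lay within 250 bp of 33 summits (4.73%, interval 3.39 to 6.57%), against 7.36% of the other FLAG peaks of the mutant line and 7.35% of the genome windows. The median distance from summit to start was 1637 bp, against 1685 bp for the other peaks. The coding exons that held a gained site had a median length of 701.5 bp, and those with another FLAG peak of the mutant line 702 bp. The intervals cover counting error over peaks only, and as peaks are not replicates no test across them was made. On 2L lay 129 sites (18.5%, against 16.5% of the other FLAG peaks of the mutant line), 19 of them in the run described above. Arm 2R held 128 (18.4%, against 20.3%) and 3L 148 (21.2%, against 19.2%). Arm 3R held 153 (22.0%, against 25.2%) and X 137 (19.7%, against 18.8%). Chromosomes 4 and Y held 1 each.

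The mirrored set makes the difference in position visible. With the rule turned round, 330 of 6901 wt FLAG peaks (4.78%) lost the peaks of both antibodies in the Pita ΔCP1+2 line. A coding exon held 78.3% of the gained summits, against 53.5% of those that lost both, and intergenic DNA held 8.32% of the gained ones, against 23.7%. A start lay within 250 bp of 4.73% of the gained summits, against 24.6% of those that lost both (n = 697 and 329). These shares are set side by side as a description, with no test across peaks. The larger number of gained sites went with the longer mutant lists. With every list shortened to its 6586 strongest peaks there were 468 gaining and 436 losing sites, and with 5000 per list 400 gaining and 356 losing sites.

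**Figure D3:**
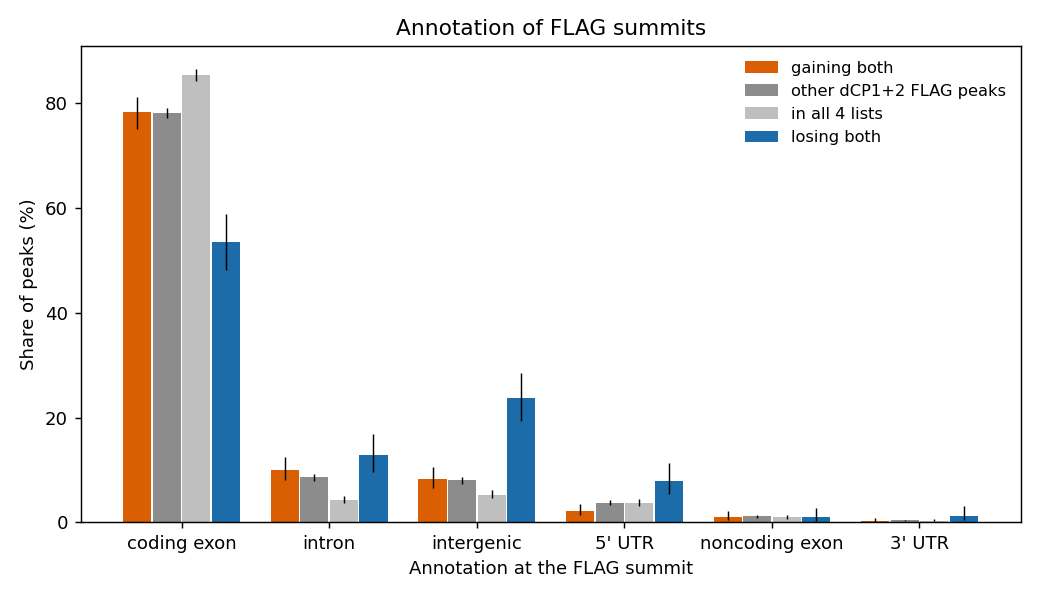
Share of FLAG summits (y axis, %) in each annotation class (x axis) for the 697 sites gaining both peaks, the other FLAG peaks of the Pita ΔCP1+2 line, the sites in all 4 lists and the 329 sites losing both, with 95% Wilson intervals over peaks as error bars. The bars of the gained sites are close to those of the other FLAG peaks of the same line, with 78.3% in coding exons, whereas the sites losing both have 53.5% there and more in intergenic DNA.

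The DNA of the gained sites was GC-rich. The windows had a median GC content of 56.1% with quartiles of 53.3 and 58.5% (n = 697), against 56.9% for the other FLAG peaks of the mutant line, 58.5% for sites in all 4 lists, 52.3% for sites losing both and 41.7% for all windows of the genome. The mean GC content rose toward the summit, reaching 62.1% in the 50 bp around it, and was 45.9% at 1000 bp upstream and 45.3% at 1000 bp downstream on the plus strand. The sites losing both had 57.3% at the summit. GC content and coding sequence went together in these sets, and their part in the position of the peaks was not tested.

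**Figure D4:**
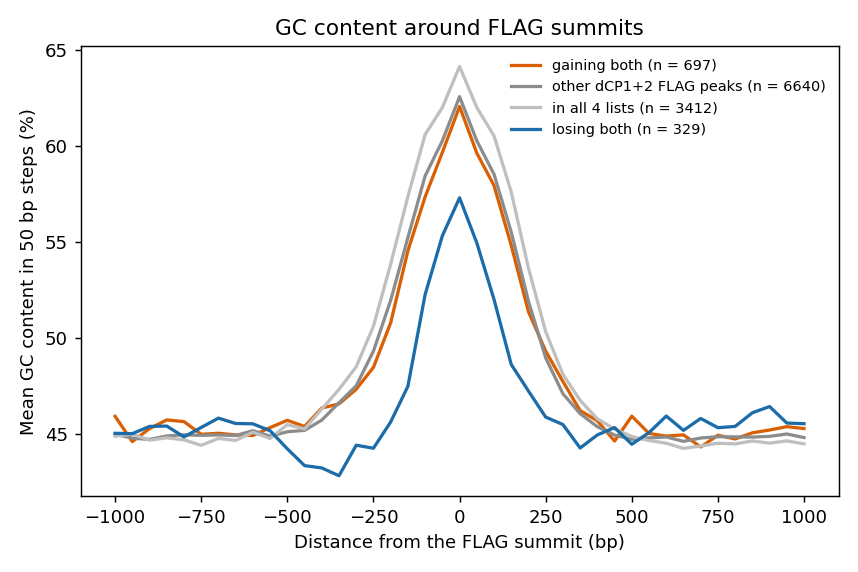
Mean GC content (y axis, %) in steps of 50 bp by distance from the FLAG summit (x axis, bp, plus strand), with 1 line per set and no error bars. The gained sites (orange) reach 62.1% at the summit and run close to the other FLAG peaks of the Pita ΔCP1+2 line, below the 64.2% of the sites in all 4 lists and above the 57.3% of the sites losing both.

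Matches to the Pita matrix were few. At a match p of 0.0001, 70 of 697 windows (10.0%, interval 8.03 to 12.5%) held one, against 11.0% of the other FLAG peaks of the mutant line, 11.1% of sites in all 4 lists and 5.77% of all windows of the genome. At 1e-05 the shares were 1.00% of gained sites (7 of 697, interval 0.487 to 2.06%), 1.79% of the other peaks and 0.660% of all windows. At 1e-06, 0 of 697 gained sites held a match, which allows a share of up to 0.548% (upper Wilson bound), while 46 of the other peaks (0.693%) and 0.185% of all windows did. The sites losing both had 32.5% at the first threshold, 21.3% at the second and 13.1% at the third. The share of the gained sites was below that of the sites losing both at each threshold. It was nearer to the other FLAG peaks than to all windows at 0.0001, and nearer to all windows at 1e-05 and 1e-06. At 1e-05 its interval covered both the share of the other peaks and that of all windows, so the counts do not separate them. The match p assumes equal base frequencies, whereas the median GC content was 56.1% in gained windows and 41.7% in all windows. The part of base composition in these shares was not tested. The best score among the gained sites was 12.1 (exact p = 1.38e-06 for a single word, not corrected for the search), near Pgam5-2 (FBgn0035004) on 2R. The peak had 1.80 in FLAG and 1.84 in CP190. The remaining members of the best 5 were near CG9993 (FBgn0034553) on 2R with a score of 10.6 and near CG30479 (FBgn0050479) on 2R with 10.4, besides the printed matches on 2L and at CG13033. The absence of a match says only that no word in the window scored above the threshold.

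**Figure D5:**
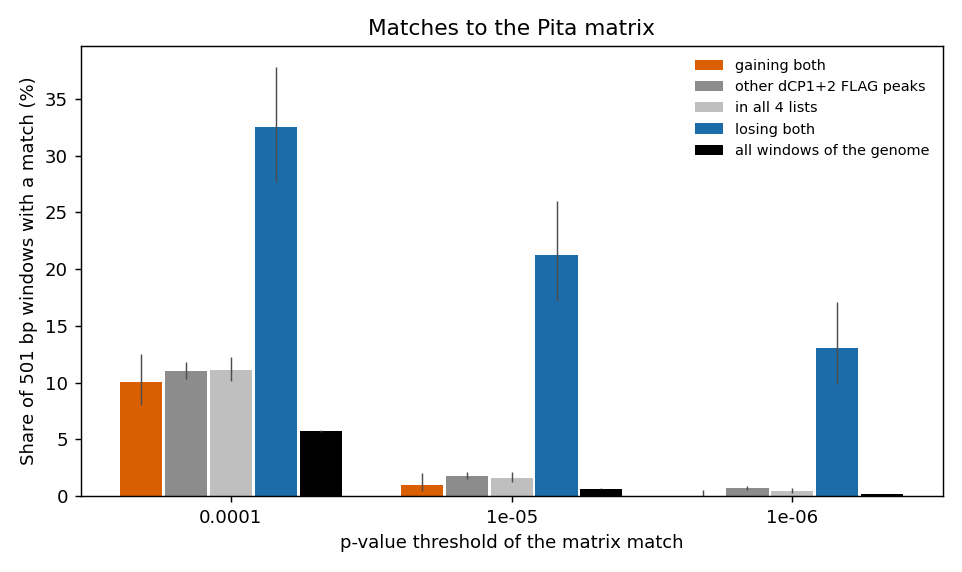
Share of windows (y axis, %) with a match to the Pita matrix at 3 p-value thresholds (x axis) in the gained sites, in the other sets of FLAG peaks and in all windows of the genome, with 95% Wilson intervals as error bars. The gained sites have 10.0%, 1.00% and 0%, against 11.0%, 1.79% and 0.693% of the other FLAG peaks of the Pita ΔCP1+2 line, 32.5%, 21.3% and 13.1% of the sites losing both and 5.77%, 0.660% and 0.185% of all windows.

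The 8 short words were counted in the same windows. GAGAG occurred in 50.5% of the gained windows, 49.6% of the other peaks, 45.9% of sites losing both and 44.9% of all windows of the genome. CAGCTG occurred in 37.4%, 37.8% and 33.1% of these sets and in 19.4% of all windows. CGATA occurred in 42.2% of gained windows, 39.1% of the other peaks, 46.5% of sites losing both and 44.7% of all windows, and CAGGTA in 14.6%, 13.9%, 12.2% and 11.1% of these sets. TATAAA was found in 12.1% of gained windows, 11.1% of the other peaks, 20.1% of sites losing both and 44.4% of all windows, in the same order as the AT content of these sets. CACACA was found in 25.0% of gained windows, against 26.1% of the other peaks, 34.3% of sites losing both and 32.7% of all windows. TATCGATA occurred in 0.143% of gained windows, 0.602% of the other peaks, 3.04% of sites losing both and 1.42% of all windows. GGTCACAC occurred in 1.58% of gained windows and 1.58% of the other peaks, against 6.99% of sites losing both and 1.10% of all windows. Each match is a description of the letters in the window and not of a bound factor.

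The edge of the rule and the distance to wt peaks show how far the gained sites lay from wt peaks. The nearest wt window of either protein was a median of 2504 bp away, with quartiles of 902 and 6745.5 bp over the 698 sites with a wt peak on their chromosome or scaffold. It lay within 500 bp of 99 sites (14.1%) and within 5000 bp of 468 (66.6%). With the deposited peak boundaries in place of windows, 53 of the 703 sites (7.54%) touched a wt peak of FLAG or CP190. Just inside the rule were sites in coding exons of CG14252 on 3R (summit 26942090, 3 bp from a wt window, 1.72 in FLAG and 1.93 in CP190), of the insulin-like peptide gene Ilp5 on 3L (9826350, 5 bp, 1.56 and 1.82) and of sls, which encodes a titin-like muscle protein, on 3L (2105954, 10 bp, 1.73 and 1.90). Just outside it were peaks in an intron of CG12104 on 3L (1602145, an overlap of 1 bp, 1.93 in FLAG and 1.70 in CP190), on 2R at 7335058 (3 bp, 2.05 and 1.83) and on 2R at 18046598 (5 bp, 1.73 and 1.69). FLAG was thus 1.56 to 1.73 at these sites just inside the rule and 1.73 to 2.05 just outside it.

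Of all 18277 annotated genes, 327 (1.79%) had a start within 1000 bp of a gained summit and 672 (3.68%) held one in the gene body, and the gene lists below are read against these shares. Among the Hox genes, 0 of 10 had a gained site at the start and 1 held one in its body. This was lab (labial, FBgn0002522), the most anteriorly acting Hox gene, with a peak in a coding exon at 6677202 to 6678755 on 3R of 2.42 in FLAG and 1.88 in CP190. Of 29 segmentation genes, the Hedgehog receptor gene ptc (FBgn0003892) had a site 833 bp from its start with 2.14 in FLAG and 1.77 in CP190, and the pair-rule gene run (FBgn0003300) held one in an intron with 2.04 and 2.22. Of 19 dorsoventral genes, dpp (FBgn0000490), which encodes a BMP ligand, had a site in a coding exon 917 bp from a start with 1.83 in FLAG and 2.42 in CP190, and vnd (FBgn0261930), a homeobox gene of the ventral neuroectoderm, had one 376 bp from a start with 2.07 and 2.03. The window of the dpp site lay 406 bp from a wt FLAG window and 383 bp from a wt CP190 window. For the ptc site these distances were 505 and 268 bp, so wt peaks of both proteins lay close by. The FLAG values of lab, ptc, run and vnd and the CP190 values of dpp and run lay above the upper quartiles of the set, which are 2.02 for FLAG and 2.14 for CP190.

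The Notch and proneural list had 1 of 20 genes with a site near the start, E(spl)mbeta-HLH (FBgn0002733), a Notch target that encodes a bHLH repressor, with 1.95 in FLAG and 1.98 in CP190 at 342 bp, and bib (FBgn0000180), a neurogenic gene, held one in a coding exon with 1.96 and 1.73. Of 21 architectural protein genes, 0 had a site at the start. The zinc finger protein gene dwg (FBgn0000520) held one in a coding exon with 1.78 in FLAG and 1.80 in CP190, and mod(mdg4) (FBgn0002781), which encodes BTB proteins, held a pair within its body, with 2.27 and 2.50 at summit 21360671 and 1.72 and 1.90 at summit 21363394 on 3R. Of 19 heat shock genes, Hsp23 (FBgn0001224) had 1.68 in FLAG and 1.77 in CP190, and Hsp83 (FBgn0001233), which encodes the fly Hsp90, had 1.51 and 1.78, both in coding exons. Among the ribosomal protein genes, RpS3 (FBgn0002622) had a site 605 bp from its start, in a coding exon, with 1.65 in FLAG and 1.73 in CP190. Among the genes of noncoding RNAs, 0 of 290 tRNA genes had a start near a gained site, 1 of 32 snRNA genes, snRNA:7SKa (FBgn0065099), had one with 1.85 in FLAG and 1.94 in CP190 at 210 bp, and 1 of 269 snoRNA genes had one. Of 124 histone genes and of the 2 genes of the transgene promoter, 0 had one. Most lists held 0 to 2 genes with a site, too few to set a list apart from the genome-wide 1.79% and 3.68%.

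Few genes held several gained sites. There were 26 genes with 2 or more gained summits in their exons or introns, and 2 with 3 or more. IA-2, which encodes a tyrosine phosphatase-like protein of secretory vesicles, had summits at 1015709, 1017139 and 1032235 on 2L, with 2.01, 1.66 and 1.64 in FLAG and 2.00, 1.74 and 1.98 in CP190. CG3520 had summits at 23397257, 23398654 and 23401693 on 2R, with 2.06, 1.58 and 1.79 in FLAG and 2.10, 1.90 and 1.94 in CP190. In both genes at least 1 site fell in the lowest part of the FLAG list, at rank 7057 for IA-2 and rank 7206 for CG3520.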

How the data were processed

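FLAG and CP190 ChIP-seq peak lists of whole Drosophila embryos were used, 1 list per antibody and line, each made by the authors from 2 replicates. The authors trimmed reads with cutadapt, aligned them to dm6 with Bowtie version 2, removed duplicates with Picard, dropped blacklisted regions, called peaks with MACS2 (p below 0.01) against 1 preimmune sample of the Pita wt line, and deposited the optimal set of the IDR pipeline at 0.05. The fold enrichment is the authors' ratio over preimmune. The −log10 p-value, the score and the summit offset of each peak are also the authors' deposited values, and the score was only checked. In each list 11 further columns (q-values, IDR values and the peak sets behind them) were not used. Depth and single replicates were not analysed.

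Summit windows of ±250 bp were compared between lists and counted as shared from 1 bp of overlap. Summits were placed on the Ensembl release 115 annotation, in the order 5′ UTR, coding exon, 3′ UTR, noncoding exon, intron, and sequence came from the RefSeq copy of dm6. The 6 members on scaffolds were left out of shares of position and sequence. The Pita matrix of the study (21 positions) was scanned on both strands with exact p-values under equal base frequencies. Calculations used Python 3.11.15 with scipy 1.17.1, numpy 2.4.6 and pandas 2.3.3, and were tested on simulated data. Sites were named by FLAG and CP190 fold enrichment (10 and 5 highest), by Pita score (5 highest), by the edge of the rule and by gene lists. The sites, lists and alternatives were chosen with earlier results of these data known, and the run on 2L, the sites at ribosomal DNA and the genes with several sites were singled out after their values were seen. Part of the result for the ribosomal protein genes is not reported here. MicroRNA genes have no type of their own in the annotation and were not counted.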

Additional observations from a re-analysis of the deposited data

How the results depend on the processing

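The number of gained sites was 703, and it was 748 with windows of 100 bp, 645 with 500 bp, 686 with deposited boundaries, 744 with an overlap of 250 bp and 697 on assembled chromosomes. It moved to 468 with every list as long as the shortest, 400 with the 5000 strongest peaks and 152 with a fold enrichment of at least 2 in both mutant lists. Under these 3 settings, in the same order, the median FLAG fold enrichment was 1.95, 2.04 and 2.13, the median CP190 fold enrichment 2.08, 2.17 and 2.23 and the median FLAG rank 4346, 3546.5 and 2680. These shifts follow from leaving out weak peaks. The median GC content was 56.7% with the 5000 strongest peaks, 55.3% with a fold of at least 2, 59.7% over 100 bp and 51.4% over 500 bp on each side. The coding exon share was 69.9% with a fold of at least 2, where the cause was not tested. A start lay within 1000 bp of 34.7%. The share with a Pita match was 1.00% at 1e-05, 0% at 1e-06 and 19.5% with deposited boundaries widened by 250 bp, a longer stretch. Of the values computed under alternatives, 21 moved and 59 did not, where a count had to stay within 1.5 times its main value and a share or median within its 95% interval over peaks. Without the run on 2L and the scaffolds, an alternative chosen after seeing the data, 678 sites remained, with 79.9% in coding exons. No paired analysis was possible because each list holds its replicates pooled, and for the same reason leaving out each replicate could not be run.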

Other observations

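The triplet repeat word CAGCAGCAG, searched on both strands after the printed stretches had been seen, occurred in 14.9% of the 697 gained windows (95% Wilson interval 12.5 to 17.8%), against 21.1% of the other FLAG peaks of the Pita ΔCP1+2 line, 25.9% of sites in all 4 lists, 15.2% of sites losing both and 4.31% of all windows of the genome of the same length. The bin of 100 kb with the next largest excess of mutant FLAG peaks after the run on 2L was at 18800001 to 18900000 on X, with 20 FLAG and 23 CP190 peaks in the Pita ΔCP1+2 line, against 11 FLAG and 14 CP190 peaks in the Pita wt line.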
